A study of Mus musculus with 21 samples.

Results

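The comparison described here set lungs that had received both exposures of the study, hog dust extract and the carcinogen NNK (HDE + NNK, n = 5), against lungs that had received neither (saline only, n = 6), and thus took in 11 of the 21 libraries of the series. Its members were the count columns that the submitters' header line puts in these groups, with all 770 genes of the panel. The mice were male and female A/J, an inbred strain prone to lung tumors, 8 to 12 weeks of age on arrival. HDE + NNK mice had 50 µL of 12.5% HDE, an aqueous, sterile-filtered extract of dust from swine confinement buildings, placed in the nose 3 times a week for 24 weeks, and 1 intraperitoneal injection of 100 mg/kg NNK, a nitrosamine of tobacco, at the start of week 4. Saline only mice had phosphate-buffered saline by both routes. Other mice of the series had HDE only (n = 4) or saline + NNK (n = 6), each with the other agent replaced by saline. Since both agents differ between the groups compared, their shares in a difference cannot be told apart within this comparison. RNA came from a piece of left lung, taken after the airspaces had been lavaged and after visible tumors had been cut out, so free cells of the airspaces and tumor tissue may be missing from it in part. The study pooled mice of separate experiments, and in the later of them controls were also given ethanol in saline by vein, but the mouse to experiment assignment is not given.

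By way of background, swine dust carries bacterial and fungal products that Toll-like receptors and C-type lectin receptors of macrophages and epithelial cells recognize. Repeated inhalation of such dust is known to bring monocytes, neutrophils and lymphocytes into the lung and to form lymphoid aggregates, while NNK is known to cause lung adenomas in A/J mice. The lung is also among the tissues richest in capillary endothelium, so genes of endothelial cells are well represented in its RNA.

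Transcripts were counted on the NanoString nCounter, which binds a pair of probes to each RNA and counts color-coded molecules without amplification. Gene totals were 319933 to 452430 counts in HDE + NNK libraries and 174604 to 493890 in saline only libraries. Scaling used 4 housekeeping genes, Sdha, Rpl19, Oaz1 and Eef1g, whose geometric mean was 1113 ± 173 counts in HDE + NNK and 1285 ± 484 in saline only libraries (SD, exact permutation p = 0.65, two-sided, n = 5 and 6). After scaling, the gene total was 389451 to 415880 in HDE + NNK lungs and 262348 to 287308 in saline only lungs, with no overlap (exact permutation p = 0.0043, two-sided, n = 5 and 6). Lyz2 (lysozyme of macrophages and alveolar type II cells) made up 27.3% of the difference in this total and Chil3 18.4%. The libraries were read in 2 runs, with 4 HDE + NNK and 2 saline only libraries in run 1 and 1 and 4 in run 2. Of the mice, 3 of 5 with HDE + NNK and 5 of 6 with saline only were female. A saline only library (run 2 lane 3) carried an instrument mark, and an HDE + NNK library (run 1 lane 11) stood apart from the other 4 in many genes. Values without one or both of these libraries are given where they end the call of a named gene. HDE + NNK values are listed below in the order lane 7, lane 8, lane 9 and lane 11 of run 1, then lane 9 of run 2.

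In HDE + NNK lungs, genes of monocytes and macrophages, chemokines that attract them, receptors for antibody and for microbial sugars, complement and B lymphocytes were higher than in saline only lungs. Most tested genes of endothelium and angiogenesis were lower. Of 388 genes with a mean of at least 87 counts besides the 4 scaling genes, 137 rose (35.3% of those tested) and 19 fell (4.9%) at an adjusted p under 0.05 by edgeR's quasi-likelihood test, 156 in all (40.2%). Counts within the gene lists below are to be read beside these shares. At an unadjusted p under 0.05 there were 190 genes. In 89 genes (22.9%) all 5 HDE + NNK lungs were above all 6 saline only lungs, and in 4 genes (1.03%) all were below. The median log2 fold change of the 388 genes was 0.23, so a typical gene lay slightly above its saline level on this scale. With trimmed mean (TMM) scaling, which brings that median to 0.01, 100 rose and 69 fell. With all 20 housekeeping genes of the panel (median 0.12), 118 rose and 43 fell, and with the positive control probes (median 0.35), 76 rose and 0 fell. All 19 falls and 100 of the 137 rises also passed with TMM. Changes given for single genes below are log2 fold changes of HDE + NNK over saline only lungs from this fit. The tissue was whole lung, so more cells of a type and more RNA per cell cannot be told apart in any of these values.

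The 2 largest rises were in Ccl8, a chemokine for monocytes, eosinophils and T cells, and in Chil3 (Ym1), a chitinase-like protein of macrophages. Ccl8 was at 1453, 2456, 2327, 591 and 1324 normalized counts in HDE + NNK lungs, against 29.6 to 121 (median 87.6) in saline only lungs. It was 18.9-fold higher, 4.24 on the log2 scale (SE 0.41, adjusted p = 1.1e-07). Even the lowest HDE + NNK lung, lane 11, was well above the highest saline only lung. Chil3 was at 13692, 32019, 35047, 7350.1 and 35055 in HDE + NNK lungs and at 1149 to 3900.1 (median 1436) in saline only lungs, and rose by 3.73 (standard error 0.50, adjusted p = 5.6e-06). Its share of all gene counts was 6.10 ± 3.20% in HDE + NNK libraries and 0.680 ± 0.417% in saline only libraries (SD, n = 5 and 6). Lanes 7 and 11 had the least Chil3 of the HDE + NNK lungs, and the other 3 lungs were close to each other. Next came Ccl11 (eotaxin-1), which attracts eosinophils, and Fcgr2b, the inhibitory receptor for IgG. Ccl11 was at 439, 677, 673, 498 and 812 in HDE + NNK lungs, against 67.7 to 138 (median 90.2) in saline only lungs, a change of 2.74 (standard error 0.21, adjusted p = 4.6e-09). Fcgr2b was at 1284, 1748, 1912, 585 and 828 against 189 to 300.2 (median 260.2), a change of 2.32 (standard error 0.27, adjusted p = 1.5e-06). In run 1 alone the changes of these 4 genes were 4.02, 3.94, 2.77 and 2.31. In run 2, with a single HDE + NNK lung and hence no test, the log2 ratios were 4.14, 4.08, 3.05 and 1.77.

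**Figure D1:**
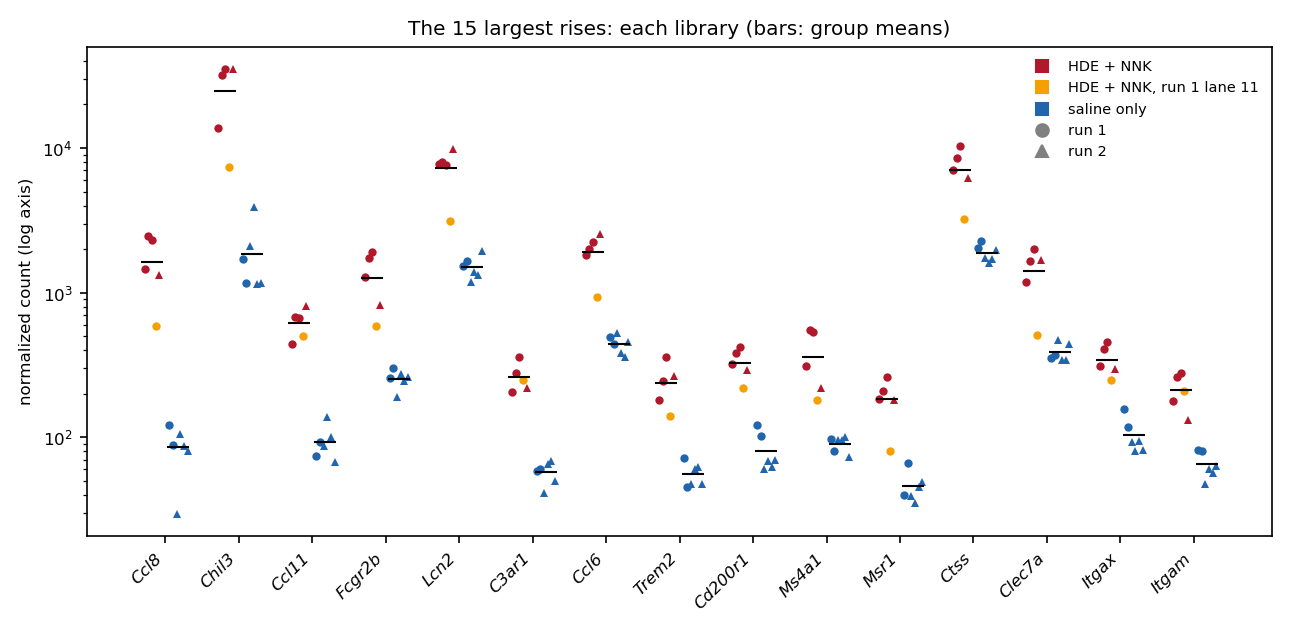
Normalized counts (log axis) of the 15 genes that rose most, with a point for each HDE + NNK library (left of each pair, run 1 lane 11 in orange) and each saline only library (right), circles for run 1 and triangles for run 2, and a bar at each group mean. In all 15 genes the 5 HDE + NNK lungs lie above the 6 saline only lungs, with lane 11 lowest for Ccl8 (591) and Chil3 (7350.1).

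The 250 bases before the transcription start are shown for the leading genes whose promoter is in the RefSeq table (build GRCm38.p6), since these genes moved together and a reader may want to set their control regions side by side. They were searched on both strands for an NF-kB motif (GGGNNNNNCC), a STAT motif (TTCNNNGAA) and a PU.1 motif (GAGGAAGT), and matches are in capitals. Ccl11 has no entry. The windows are chr11:82114935-82115184 (+ strand) for Ccl8, chr3:106167565-106167814 (- strand) for Chil3 and chr1:170976072-170976321 (- strand) for Fcgr2b.
Ccl8: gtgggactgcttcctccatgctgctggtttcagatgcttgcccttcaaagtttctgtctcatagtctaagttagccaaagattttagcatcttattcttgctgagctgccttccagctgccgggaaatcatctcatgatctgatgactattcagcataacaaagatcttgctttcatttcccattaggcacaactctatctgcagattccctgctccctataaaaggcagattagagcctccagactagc
Chil3: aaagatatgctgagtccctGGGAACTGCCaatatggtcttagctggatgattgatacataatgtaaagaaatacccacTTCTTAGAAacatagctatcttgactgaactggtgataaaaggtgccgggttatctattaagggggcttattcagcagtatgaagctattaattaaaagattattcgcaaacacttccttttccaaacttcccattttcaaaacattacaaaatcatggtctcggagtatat
Fcgr2b: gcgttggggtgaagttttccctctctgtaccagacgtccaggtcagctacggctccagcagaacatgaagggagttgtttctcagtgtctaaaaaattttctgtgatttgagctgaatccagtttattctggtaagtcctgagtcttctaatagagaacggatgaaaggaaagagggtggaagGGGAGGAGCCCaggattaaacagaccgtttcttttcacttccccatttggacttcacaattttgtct
Ccl8 held none of these motifs, Chil3 held 1 match to the NF-kB and 1 to the STAT motif, and Fcgr2b held 2 overlapping matches to the NF-kB motif. The motifs occur in 45.8% (NF-kB), 7.02% (STAT) and 2.44% (PU.1) of 32851 promoters of this length, so a match is common for the first and says nothing of binding.

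CC chemokines were the list with the highest median. Of 7 tested members, 5 rose and 0 fell, with a median log2 fold change of 1.62 against 0.23 over all tested genes. Besides Ccl8 and Ccl11 these were Ccl6 at 2.10 (adjusted p = 1.5e-06), Ccl9 at 1.62 (adjusted p = 2.7e-06), both macrophage chemokines of the mouse, and Ccl17, a chemokine for Th2 cells, at 0.90 (adjusted p = 0.014). Ccl17 overlapped between the groups, did not pass with TMM (adjusted p = 0.066) or without HDE + NNK run 1 lane 8 or run 1 lane 9 (0.69 to 0.77, adjusted p = 0.051 to 0.067), and was lower in the run 2 HDE + NNK lung than in the run 2 saline only mean (log2 ratio -0.31). Among 6 tested CXC and other chemokines, Cxcl13, which draws B cells into lymphoid follicles, was the 1 that rose. It was at 175, 283, 307, 119.6 and 95.8 in HDE + NNK lungs and at 31.3 to 111 (median 57.8) in saline only lungs, a change of 1.61 (standard error 0.36, adjusted p = 0.0011). The run 2 lung had the lowest of these values and lay within the saline only range. Of 3 tested chemokine receptors, Ccr2, the receptor by which monocytes leave the blood, rose by 1.44 (standard error 0.22, adjusted p = 2.3e-05). Its highest value, 798, was in lane 11, the lung with the smallest Ccl8 rise.

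Genes of macrophages rose in most but not all members. Of 20 tested genes of scavenging, activation and the lysosome, 13 rose and 1 fell, with a median of 0.89. Trem2, a lipid receptor of macrophages, was at 182, 243, 359, 141 and 264 in HDE + NNK lungs and 45.7 to 72.1 (median 54.2) in saline only lungs. It rose by 2.08 (standard error 0.35, adjusted p = 4.5e-05), beside 1.98 (adjusted p = 1.5e-05) for Msr1, the scavenger receptor A, and 1.90 (adjusted p = 1.4e-05) for Ctss, a lysosomal protease that trims the MHC class II invariant chain. Cybb, a subunit of the phagocyte oxidase, was at 1869.9, 2172, 2251, 729 and 1899 against 451 to 887 (median 518), and rose by 1.57 (standard error 0.30, adjusted p = 0.00019). Lane 11 alone lay within the saline only range of Cybb. Spp1 (osteopontin) rose by 1.24 (adjusted p = 1.5e-05) and Emr1 (F4/80), a surface marker of mature macrophages, by 1.19 (adjusted p = 4.3e-05). The integrins Itgax (Cd11c), of alveolar macrophages and dendritic cells, and Itgam (Cd11b), of monocytes and neutrophils, rose by 1.73 and 1.69 (adjusted p = 2.3e-05 and 5.5e-05). Cd36, a fatty acid receptor of macrophages and capillary endothelium, fell by 0.54 on the log2 scale (adjusted p = 0.0044). Marco, a scavenger receptor of alveolar macrophages, was at 166, 154, 136, 121 and 165 in HDE + NNK lungs and 102 to 378 (median 223) in saline only lungs and did not pass here (log2 fold change -0.62, adjusted p = 0.094), but was called lower with TMM (-0.81, adjusted p = 0.024) and without saline only run 2 lane 5 (-0.77, adjusted p = 0.028).

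Receptors for antibody and for fungal sugars, with the kinase Syk that the activating ones among them signal through, formed the list in which every tested member rose. Of 16 members on the panel 9 could be tested and all 9 passed, with a median of 1.24, and all 9 also passed with TMM. Clec7a (dectin-1), the receptor for fungal beta-glucan, was at 1195, 1649.8, 2019.5, 509 and 1686 in HDE + NNK lungs against 343 to 471 (median 364) in saline only lungs, a change of 1.86 (standard error 0.27, adjusted p = 1.3e-05). The activating IgG receptor Fcgr3 rose by 1.501 (adjusted p = 2.5e-05), the lectin receptor Clec4a2 by 1.36 (adjusted p = 4.1e-05) and Syk by 1.24 (adjusted p = 1.4e-05). The inhibitory receptor Cd200r1, which restrains myeloid cells, rose by 2.01 (adjusted p = 1.7e-05), and its ligand Cd200 by 0.48 (adjusted p = 0.0037).

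Beside the 35.3% of all tested genes that rose (median 0.23), 6 of 13 tested sensors of microbial products rose and 0 fell (median 0.38). These were Cd14, a co-receptor for endotoxin, at 1.39 (adjusted p = 2.4e-05), Ly96 (MD-2), a chain of the endotoxin receptor, at 0.81 (adjusted p = 0.00012), Lbp, which carries endotoxin to Cd14, at 0.82 (adjusted p = 0.0014), and the receptors Tlr4 at 0.42 (adjusted p = 0.044), Tlr2, for bacterial lipoproteins, at 0.87 (adjusted p = 0.00010) and Tlr8, for RNA, at 1.02 (adjusted p = 0.013). Lbp and Tlr8 did not pass in run 1 alone (adjusted p = 0.088 and 0.069). Tlr2 was at 135, 125, 116, 130.2 and 135 in HDE + NNK lungs, a narrow range that lay above the 52.4 to 102 (median 68.7) of saline only lungs. In the second deposited table, where counts under 87 stand as 87, Tlr2 did not pass with sex as a term. Tlr4 passed narrowly, and did not pass without HDE + NNK run 1 lane 7, run 1 lane 8, run 1 lane 9 or run 2 lane 9 or without saline only run 2 lane 3, run 2 lane 4, run 2 lane 5 or run 2 lane 6 (0.34 to 0.42, adjusted p = 0.057 to 0.12), with TMM (adjusted p = 0.26) or with run as a term (adjusted p = 0.12). Of 18 tested complement genes 10 rose and 0 fell (median 0.49). C3ar1, the receptor for the fragment C3a, was at 206, 278, 361, 251 and 218 against 41.1 to 69.1 (median 59.5), a change of 2.19 (standard error 0.23, adjusted p = 4.2e-07). Cfb, of the alternative pathway, rose by 1.59 (adjusted p = 4.3e-06), C1qb and C1qa, which macrophages make, by 1.35 and 1.23 (adjusted p = 1.0e-05 and 1.6e-05), and C3 itself by 1.08 (adjusted p = 1.5e-06). For C3, lane 11 was the highest of the HDE + NNK lungs (2946, against 1962 to 2211 in the others), and for Cfb it was the lowest (247, against 461 to 539).

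Of 5 tested genes of neutrophils and their attractant receptors, 4 rose and 0 fell, beside the 35.3% of all tested genes that rose. Itgam and Cybb among them are shared with macrophages. Lcn2, an iron-binding antimicrobial protein made by both neutrophils and airway epithelium, was at 7766, 7989, 7676, 3126 and 9825 in HDE + NNK lungs and 1185 to 1941 (median 1462) in saline only lungs, a change of 2.27 (standard error 0.25, adjusted p = 8.2e-07). Fpr2, a receptor for formyl peptides, rose by 0.81 (adjusted p = 0.0018), though not in run 1 alone (adjusted p = 0.14). S100a8, a calcium-binding protein abundant in neutrophils, was at 476, 513, 554, 393 and 590.0 against 224 to 665 (median 310.1) and did not pass (log2 fold change 0.52, adjusted p = 0.11). The highest saline only value of S100a8 was in the library with the instrument mark. Without that library S100a8 passed, at 0.79 (adjusted p = 0.0072). The neutrophil genes Elane, Mpo, Camp, Cxcr2 and Csf3r lay under the count minimum.

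Most B lymphocyte genes that could be tested rose, and 21 of 25 T lymphocyte genes on the panel lay under the count minimum. Of 10 tested genes of B cells and lymphoid tissue, 7 rose and 0 fell (median 1.05). Ms4a1 (CD20), a surface protein of B cells, was at 314, 549.6, 532, 181 and 219.6 in HDE + NNK lungs and 72.8 to 100.1 (median 95.4) in saline only lungs, a change of 2.00 (standard error 0.31, adjusted p = 2.3e-05). Cd79b, a part of the B cell receptor, rose by 1.60 (adjusted p = 1.5e-05), Cd22, a B cell lectin that binds sialic acid, by 1.60 (adjusted p = 0.00034), Btk, the kinase of B cell receptor signaling, by 1.16 (adjusted p = 1.5e-05), and Xbp1, which plasma cells need for secretion, by 0.74 (adjusted p = 6.9e-06). For Ms4a1 and Cd79b the lowest HDE + NNK lungs were lane 11 and the run 2 lung, while Cd22 was highest in lane 11 (226). Of 4 tested T cell genes, Il7r, the interleukin-7 receptor of T and other lymphoid cells, rose by 1.62 (adjusted p = 6.8e-05) and Cd3g, a chain of the T cell receptor complex, by 0.94 (adjusted p = 0.00030). Cd3g was at 81.7 in the run 2 HDE + NNK lung, within the 52.2 to 81.9 of saline only lungs. With sex as a term, on the table with counts under 87 set to 87, Cd3g did not pass. Thy1 did not pass (log2 fold change 0.32, adjusted p = 0.24). Genes for MHC class II rose in 5 of 8 tested members and fell in 0 (median 0.69), with H2-DMb2, a peptide-loading chain, at 1.45 (adjusted p = 2.0e-05), H2-Eb1 at 0.83 (adjusted p = 0.0021) and Cd74, the invariant chain, at 0.58 (adjusted p = 0.0014). H2-Ab1 was at 117, 142, 129.6, 110.2 and 175 against 103 to 234 (median 152) and did not pass (log2 fold change -0.28, adjusted p = 0.39). Of 14 tested genes of MHC class I and peptide loading, 5 rose with changes under 0.8, a share close to the 35.3% of all tested genes, and with TMM 2 rose and 1 fell. The rises included H2-K1 at 0.49 (adjusted p = 0.0060) and H2-D1 at 0.39 (adjusted p = 0.020), and neither of these 2 passed with TMM (adjusted p = 0.094 and 0.19). H2-D1 also did not pass with run as a term (0.28, adjusted p = 0.081) or without both the marked saline only library and HDE + NNK lane 11 (adjusted p = 0.088).

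Genes of endothelium and angiogenesis were the list that fell. Of 21 tested, 13 fell and 1 rose, with a median of -0.51, and with TMM 19 fell and 0 rose. Vegfa, the growth factor of blood vessels, was at 2046, 1229, 1412, 2529 and 1217 in HDE + NNK lungs and 2342 to 3241 (median 2784) in saline only lungs, a change of -0.72 (standard error 0.17, adjusted p = 0.0019). Its receptor Kdr was at 821, 612, 622, 1174 and 567 against 1138 to 1448 (median 1202), a change of -0.70 (standard error 0.17, adjusted p = 0.0019). In both genes lanes 8 and 9 and the run 2 lung were close together and lowest, lane 7 lay between, and lane 11 was within the saline only range. Tek, the angiopoietin receptor, fell by 0.68 (adjusted p = 0.0064), Nrp1, a co-receptor of VEGF, by 0.56 (adjusted p = 0.0011) and Pecam1 (CD31), an adhesion protein of endothelial junctions and platelets, by 0.51 (adjusted p = 0.0050), each on the log2 scale. Nrp1, Pecam1, Tgfb2 and Abcb1a were the 4 genes with every HDE + NNK lung below every saline only lung. Abcb1a, an efflux pump of endothelium and epithelium, was at 187, 125, 116, 178 and 130.3 against 198 to 304 (median 214), a change of -0.62 (standard error 0.16, adjusted p = 0.0034). The largest fall was in Lyve1, which binds hyaluronan on lymphatic vessels, at 469.7, 405, 371, 698 and 269 against 616 to 1439.8 (median 782), a change of -0.996 (standard error 0.27, adjusted p = 0.0049). Lane 11 was the 1 HDE + NNK lung within the saline only range of Lyve1, which was wide. Dll4, a Notch ligand of sprouting vessels, Eng, a TGF-beta co-receptor, and Thbd (thrombomodulin), an anticoagulant receptor, fell by 0.61, 0.58 and 0.58 on the log2 scale (adjusted p = 0.015, 0.020 and 0.018). Dll4 did not pass without HDE + NNK run 1 lane 8 or run 1 lane 9 (-0.52 to -0.51, adjusted p = 0.051 to 0.052), Eng without HDE + NNK run 1 lane 8, run 1 lane 9 or run 2 lane 9 (-0.50 to -0.48, adjusted p = 0.056 to 0.068) and Thbd without HDE + NNK run 1 lane 9 or run 2 lane 9 (-0.51 to -0.44, adjusted p = 0.051 to 0.054). Hif1a, the oxygen-regulated transcription factor, was the 1 that rose, by 0.34 (adjusted p = 0.0044), and did not pass with TMM (adjusted p = 0.27). Vcam1, an adhesion protein of activated endothelium, did not pass (log2 fold change 0.22, adjusted p = 0.30). Further falls, from -0.52 to -0.35, were Vwf (von Willebrand factor), Icam2 and Icam1 (adhesion proteins), Tnfrsf12a (the TWEAK receptor) and Cd34 (a surface sialomucin of endothelium). Vwf did not pass without HDE + NNK run 1 lane 8, run 1 lane 9 or run 2 lane 9 or without saline only run 2 lane 3, run 2 lane 4 or run 2 lane 6 (-0.49 to -0.41, adjusted p = 0.050 to 0.071) or in run 1 alone (-0.02) or with run as a term (-0.30, adjusted p = 0.16), and Icam2 not without HDE + NNK run 1 lane 8, run 1 lane 9 or run 2 lane 9 (-0.41 to -0.36, adjusted p = 0.064 to 0.078). With the positive control probes as scaling, no fall passed, and in run 1 alone, with 4 lungs against 2, Lyve1, Tek, Abcb1a, Dll4, Eng, Thbd, Nrp1, Pecam1, Vwf, Icam1, Icam2, Cd34, Tnfrsf12a and Tnfsf10 did not pass.

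**Figure D2:**
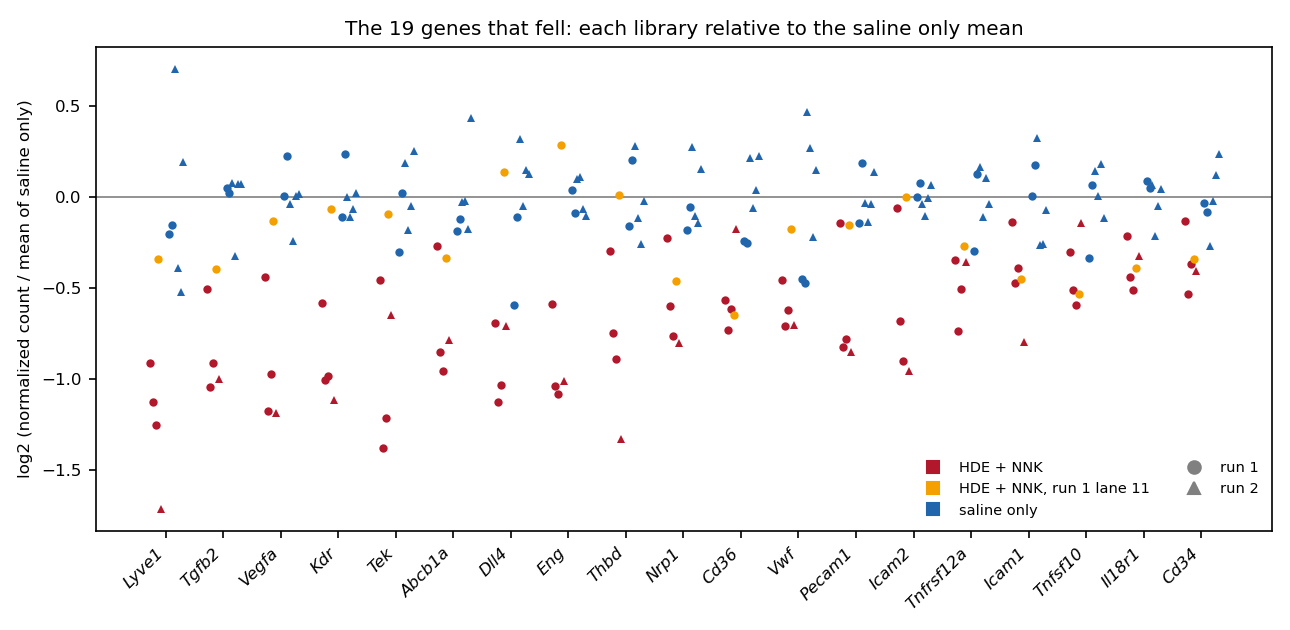
The 19 genes that fell, each library as the log2 ratio of its normalized count to the mean of the saline only lungs (grey line at 0), with HDE + NNK libraries left of saline only libraries in each pair and run 1 lane 11 in orange. Lanes 8 and 9 were below all saline only lungs in 19 of 19 genes and lane 11 in 9, where it lies near 0 or above it for Dll4 and Eng.

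The lung in lane 11 differed from the other HDE + NNK lungs in these genes, and also more widely. Over all 388 tested genes its median log2 ratio to the other HDE + NNK lungs was 0.28. That median was 0.47 for the genes that fell and -0.16 for those that rose. The summed normalized count of the 21 tested genes of endothelium and angiogenesis was 23732 in lane 11, 13315 to 20143 in the other 4 HDE + NNK lungs and 22204 to 26835 in saline only lungs. Lane 11 was below all saline only lungs in 9 of the 19 genes that fell, against 13, 19, 19 and 17 for lanes 7, 8 and 9 and the run 2 lung. Of the 137 genes that rose, lane 11 was above all saline only lungs in 117, against 130, 135, 131 and 111 in the others. Without lane 11 the count of falls was 42 and that of rises 125. Its scaling genes also differed, with Eef1g at 1162 normalized counts against at most 939 in the other HDE + NNK lungs and Rpl19 at 3684, the lowest of the 5. What part the scaling had in its values was not tested.

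Genes of TGF-beta signaling, matrix and mesenchyme moved both ways. Of 17 tested, 6 rose and 1 fell (median 0.48), a share of rises equal to the 35.3% of all tested genes, and with TMM 3 rose and 4 fell. Tgfb1 rose by 0.52 (adjusted p = 0.0018), its receptor Tgfbr1 by 0.75 (adjusted p = 0.00011), Fn1 (fibronectin) by 0.72 (adjusted p = 0.0080) and Vim (vimentin) by 0.50 (adjusted p = 0.0020). Vim did not pass with TMM (0.30, adjusted p = 0.051) or in run 1 alone (adjusted p = 0.071). Fn1 was at 2258, 2005, 2205, 2828 and 1057 in HDE + NNK lungs against 995 to 1439.7 (median 1292) in saline only lungs, so that the run 2 lung lay within the saline only range, and with run as a term it did not pass (adjusted p = 0.075). Tgfb2, another ligand of this family, was at 89.9, 62.0, 68.0, 97.3 and 63.9 against 102 to 135 (median 133) and fell by 0.75 on the log2 scale (standard error 0.19, adjusted p = 0.0023). Its range spans the floor of 87 of the second deposited table, in which it did not pass. Of 9 tested epithelial genes, Muc1, a membrane mucin, at 0.46 (adjusted p = 0.0014) and Ceacam1, an adhesion protein, at 0.63 (adjusted p = 0.0019) rose and 0 fell (median 0.10), and with TMM 1 rose and 3 fell. This share of rises was below the 35.3% of all tested genes. Muc1 did not pass with TMM (0.25, adjusted p = 0.064) or in run 1 alone (adjusted p = 0.19). Epcam, of all lung epithelium, was at 401, 363, 433, 488 and 432 against 379 to 461 (median 396) (log2 fold change 0.04, adjusted p = 0.78), and its sign changed with the scaling.

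The remaining lists differed in how many of their members passed. Cd274 (PD-L1), the ligand of the T cell checkpoint, was at 411, 389, 405, 391 and 521 in HDE + NNK lungs and 161 to 315 (median 203) in saline only lungs, a change of 0.96 (standard error 0.20, adjusted p = 0.00063), one of 5 rises and 1 fall among 8 tested checkpoint and inhibitory genes. In that list with TMM 3 rose and 3 fell. Il1rn, the antagonist of interleukin-1, rose by 1.28 (adjusted p = 0.0014), Casp1, which cleaves interleukin-1 beta, by 0.76 (adjusted p = 0.0012), and the receptor chain Il18r1 fell by 0.37 on the log2 scale (adjusted p = 0.0055). Of 17 tested interferon-response genes, Ifitm1 at 0.73 (adjusted p = 0.0018) and Zbp1 at 0.82 (adjusted p = 0.0046) rose and 0 fell, with a median of 0.03, below that of all genes. With TMM 2 rose and 5 fell. Zbp1 did not pass in the values with the floor of 87 (adjusted p = 0.27). Of 18 tested genes of NF-kB and the TNF family, 2 rose, the receptor Tnfrsf1b at 1.30 (adjusted p = 0.0023) and the inhibitor Tnfaip3 (A20) at 0.71 (adjusted p = 0.0020), and 1 fell, the death ligand Tnfsf10 (TRAIL), by 0.41 on the log2 scale (adjusted p = 0.034). The share that rose was below the 35.3% of all tested genes. Tnfsf10 did not pass without HDE + NNK run 1 lane 8, run 1 lane 9 or run 1 lane 11 or without saline only run 1 lane 6, run 2 lane 3, run 2 lane 4 or run 2 lane 5 (-0.41 to -0.36, adjusted p = 0.051 to 0.086) or with run as a term (adjusted p = 0.067). Among 5 tested genes of type 2 immunity, Ccl11, Ccl17 and Il13ra1, a chain of the interleukin-13 receptor (log2 fold change 0.41, adjusted p = 0.0028), rose, while Il4, Il5 and Il13 lay under the count minimum. These 3 of 5 stand beside the 35.3% of all tested genes that rose. With TMM 1 of the 5 passed, and Il13ra1 had 0.20 (adjusted p = 0.12). Of 19 tested genes of cell cycle, survival and tumors, 6 rose and 0 fell (median 0.28), a smaller share than the 35.3% of all tested genes that rose, and with TMM 2 rose and 2 fell. They included the lysosomal tetraspanin Cd63 at 0.82 (adjusted p = 0.00012), the tumor suppressor Trp53, at 135, 127, 127, 281 and 98.3 against 52.7 to 97.9 (median 75.9) (log2 fold change 0.97, adjusted p = 0.029), and the transcription factor Myc, at 202, 179, 169, 226 and 65.1 against 64.9 to 116 (median 97.6) (log2 fold change 0.85, adjusted p = 0.031). Trp53 did not pass without HDE + NNK run 1 lane 11 or without saline only run 1 lane 2, run 2 lane 3 or run 2 lane 6 (0.64 to 0.95, adjusted p = 0.050 to 0.14), and Myc without HDE + NNK run 1 lane 7, run 1 lane 8, run 1 lane 9 or run 1 lane 11 or without saline only run 2 lane 3 or run 2 lane 6 (0.72 to 0.85, adjusted p = 0.051 to 0.078). With run as a term they had 0.57 and 0.34 (adjusted p = 0.16 and 0.19). Just outside the threshold lay Angpt1, a ligand of the receptor Tek, with -0.52 and an adjusted p of 0.0502, which passed without HDE + NNK run 1 lane 11 or without saline only run 1 lane 2, run 1 lane 6 or run 2 lane 4 (-0.78 to -0.56, adjusted p = 0.0014 to 0.047).

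**Figure D3:**
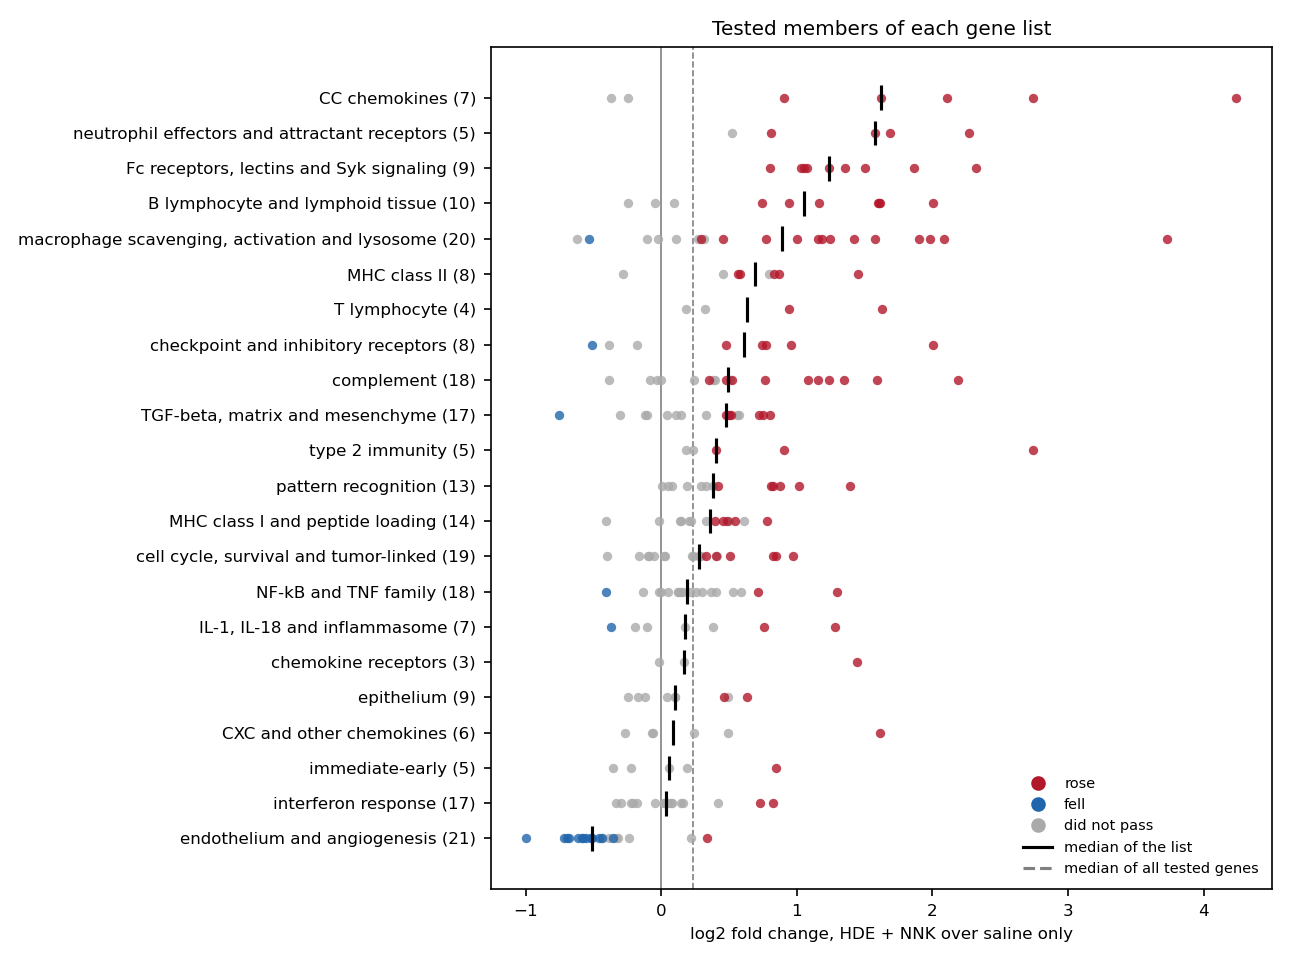
Log2 fold changes of HDE + NNK over saline only lungs for the tested members of each gene list with at least 3 of them (number in brackets), colored by whether they rose, fell or did not pass, with a black bar at each list's median and a dashed line at the median of all 388 genes (0.23). Lists of CC chemokines and of Fc receptors and lectins lie to the right of that line and the endothelial list (median -0.51) to its left.

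To see the double exposure beside each agent, its changes were set next to those of HDE only and of saline + NNK lungs against the same 6 saline only lungs, which these comparisons thus share. HDE only lungs came from 1 female and 3 male mice, with 2 libraries in each run. The HDE only library in run 2 lane 12 had a scaled gene total of 303139, against 413158 to 439931 in the others of its group. Saline only libraries had 262348 to 287308. What part this library had in the HDE only changes was not tested. Saline + NNK lungs came from 3 female and 3 male mice, with 4 libraries in run 1 and 2 in run 2. For these single exposures no fit with sex as a term was run. In HDE only lungs 117 genes rose (30.2%) and 17 fell (4.38%), 134 in all (34.5%), and in saline + NNK lungs edgeR's quasi-likelihood test called 0 genes (0%, with 4 at an unadjusted p under 0.05). Ccl8 had log2 fold changes of 4.24 in HDE + NNK, 4.02 in HDE only and 0.68 in saline + NNK lungs. For Chil3 they were 3.73 in HDE + NNK, 3.63 in HDE only and 0.46 in saline + NNK lungs. Kdr had -0.70 in HDE + NNK, -0.59 in HDE only and 0.06 in saline + NNK lungs, and Abcb1a -0.62 in HDE + NNK, -0.38 in HDE only and -0.14 in saline + NNK lungs. Against saline + NNK lungs, which differ by the dust alone, HDE + NNK lungs had 116 genes higher (29.9%) and 22 lower (5.67%), 138 in all (35.6%). In that comparison Ccl8 had 3.57, Chil3 3.27, Kdr -0.76 and Nrp1 -0.38.

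**Figure D4:**
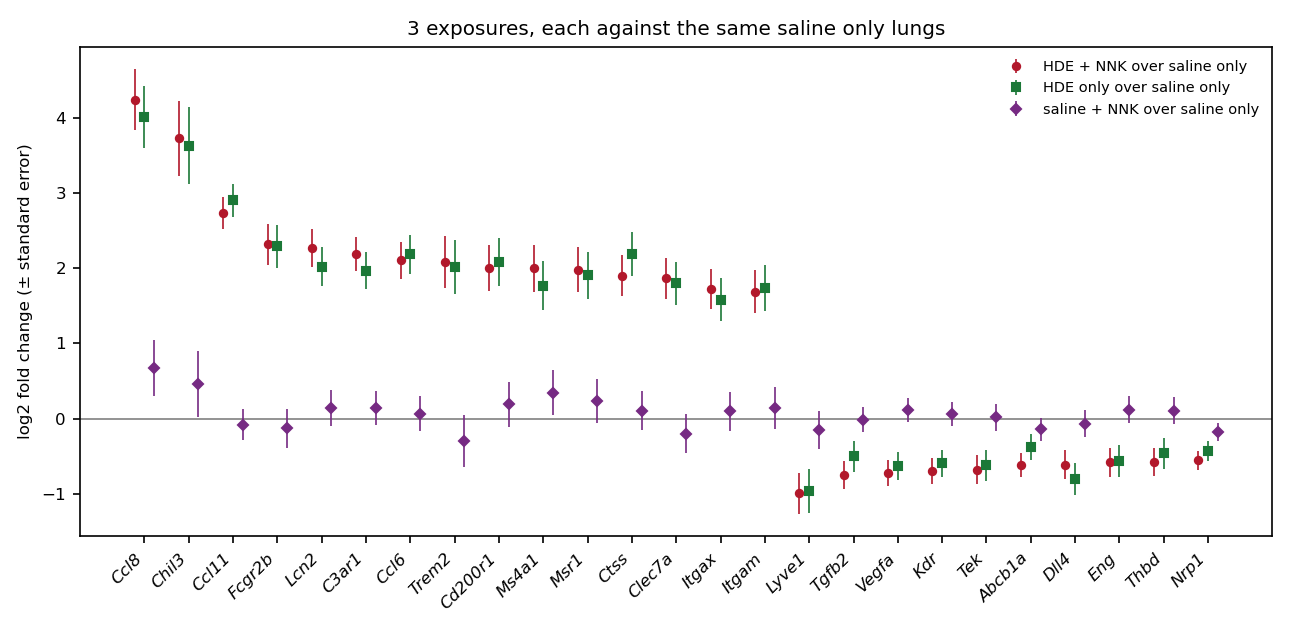
Log2 fold changes with standard errors for HDE + NNK, HDE only and saline + NNK lungs (left to right for each gene), each over the same saline only lungs, for the 15 largest rises and the 10 largest falls of the double exposure. The genes were chosen by the HDE + NNK values, in which Ccl8 has 4.24 and Lyve1 -0.996, and the saline + NNK values run from -0.30 (Trem2) to 0.68 (Ccl8).

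HDE + NNK lungs were also compared directly with HDE only lungs (n = 4), which share the dust and lack NNK. By edgeR's quasi-likelihood test 0 of 388 genes passed (0%), with 8 at an unadjusted p under 0.05, and by DESeq2 0 passed, with 10 unadjusted. The smallest p was that of Marco, at 148 ± 19.6 normalized counts in HDE + NNK lungs and 76.3 ± 38.3 in HDE only lungs (SD, n = 5 and 4), a log2 difference of 0.98 (standard error 0.35) with an adjusted p of 0.996. It was followed by H2-Ab1 at -0.71 (standard error 0.27), the integrin Itga6 at 0.45 (standard error 0.18), Cd3g at 0.52 (standard error 0.21) and the kinase Irak4 at -0.32 (standard error 0.13), none of which passed. For Ccl8 the difference was 0.23 (standard error 0.40) and for Chil3 0.10 (standard error 0.51). With 5 and 4 mice these errors leave room for differences of either sign, and a p above the threshold does not show that the lungs were alike. The groups also differed in sex, with 3 of 5 HDE + NNK and 1 of 4 HDE only mice female. With run as a term, with sex as a term on values with the floor of 87, or without HDE only run 2 lane 12, 0 genes passed.

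A further 378 genes lay under the count minimum and were not tested. In 44 of them (11.6%) all 5 HDE + NNK lungs were above all 6 saline only lungs, and in 0 all were below. Negative control probes, which have no target, averaged 24.2 ± 6.67 scaled counts in HDE + NNK and 16.4 ± 7.06 in saline only libraries (SD, n = 5 and 6), so that part of such a difference may be background, which was not tested for each gene. After subtraction of the negative probes 33 of the 44 still did not overlap, and without scaling 16 did not. In 13 genes the groups did not overlap with scaling, without it and after subtraction. Cxcl3, a neutrophil chemokine, was at 92.1, 158, 141, 109 and 124 in HDE + NNK lungs against 14.8 to 52.2 (median 20.6) in saline only lungs. Blnk, an adaptor of the B cell receptor, was at 138, 221, 204, 101 and 101 in HDE + NNK lungs against 29.6 to 61.5 (median 51.1) in saline only lungs. Ccr1, a receptor of inflammatory CC chemokines, was at 102, 139, 162, 92.7 and 97.1 in HDE + NNK lungs against 38.3 to 57.7 (median 42.5) in saline only lungs. Irf4, a transcription factor of plasma cells and alternatively activated macrophages, was at 86.5, 103, 87.3, 63.3 and 91.9 in HDE + NNK lungs against 18.8 to 27.4 (median 21.2) in saline only lungs. Others of this kind were Ly9, Pparg, Ticam2, Cxcl1, Ccl12, Il1a, Slamf6 and Hcst.

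**Figure D5:**
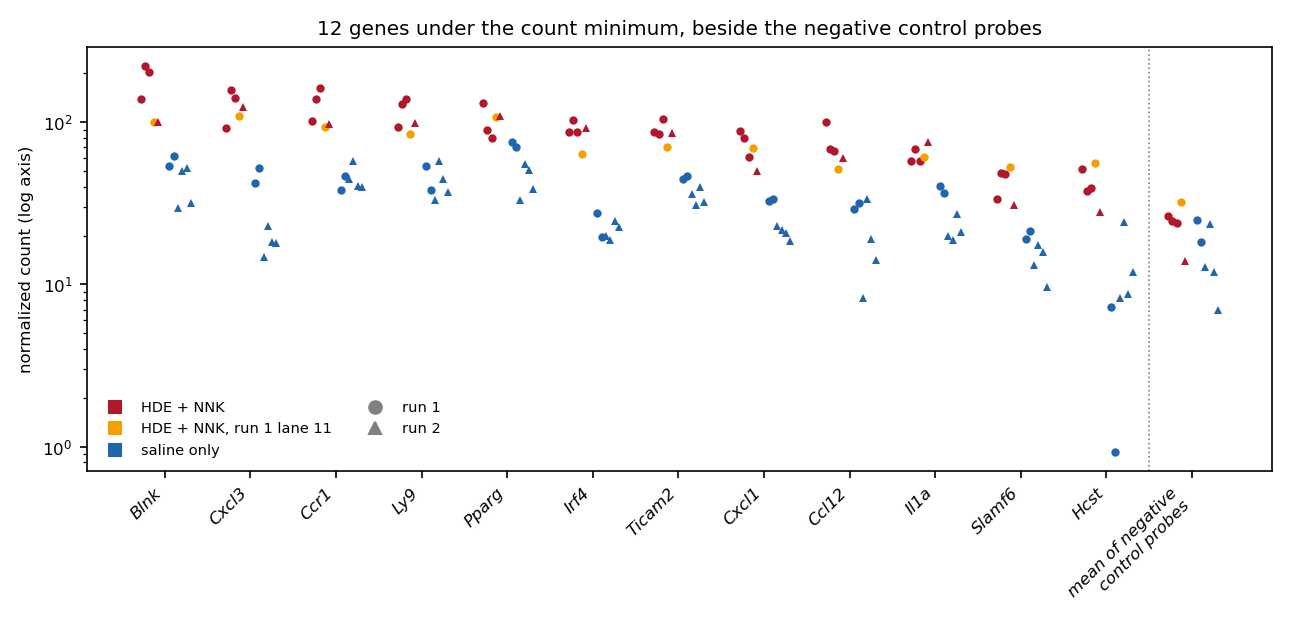
Normalized counts (log axis) of 12 of the 13 such genes under the count minimum in each HDE + NNK library (left, run 1 lane 11 in orange) and saline only library (right), beside the mean of the 8 negative control probes scaled the same way. HDE + NNK lungs lie above saline only lungs in each gene, by construction of the choice, and 5 of the 6 saline only values of Hcst lie below the saline only mean of the negative probes (16.4).

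Marker lists of the cell types that whole lung could hold were summed over all members, tested or not. For macrophages (6 markers) the sums were 2176 to 3920.4 (median 3286) in HDE + NNK lungs and 1544 to 2295 (median 1825) in saline only lungs, with 4 of 6 tested markers higher. For B cells they were 656 to 1371 (median 950.0) in HDE + NNK lungs and 223 to 419 (median 311) in saline only lungs, with 3 of 3 tested markers higher and no overlap. T cell markers summed to 289 to 536 (median 488) in HDE + NNK lungs and 218 to 336 (median 255) in saline only lungs, neutrophil markers to 643 to 766 (median 688) in HDE + NNK lungs and 351 to 777 (median 425) in saline only lungs and NK cell markers to 178 to 307 (median 217) in HDE + NNK lungs and 143 to 299 (median 182) in saline only lungs, each with overlap. For mast cells and eosinophils, 5 markers that all lay under the count minimum summed to 138 to 236 (median 207) in HDE + NNK lungs and 46.1 to 151 (median 88.9) in saline only lungs. Endothelial markers (6) summed to 5344 to 10416 (median 5513) in HDE + NNK lungs and 8908 to 11082 (median 10110.2) in saline only lungs, with overlap. Of these 6 markers, all tested, 4 were lower and 2 did not pass, while with TMM 6 were lower. Epithelial markers summed to 7754 to 9901 (median 8128) in HDE + NNK lungs and 6831 to 8297 (median 7621) in saline only lungs, with 1 of 5 tested markers higher. Epithelial and endothelial markers were thus counted in every library, though they do not tell lung from other organs. How far the gene changes above follow these sums was not tested.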

How the data were processed

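RNA (50 ng) from left lungs of 21 mice was hybridized for 16 h with the mouse PanCancer Immune codeset (784 probes, of which 750 are for endogenous genes, 20 for housekeeping genes and 14 for controls) and counted on an nCounter Sprint instrument. Both deposited tables were used. One holds the raw counts per probe as the authors deposited them, and in the other, deposited by the authors as well, counts under 87 stand as 87. Columns of the first carry the group, run and lane but not the replicate number or sex, which only the second gives. Animals were not pooled. For scaling, counts were divided by the geometric mean of Sdha, Rpl19, Oaz1 and Eef1g, and normalized counts are raw counts so scaled, multiplied by the geometric mean of that divisor over the 21 libraries. Genes averaging 87 raw counts or more over the 21 libraries, less the 4 scaling genes, came to 388 and were tested with edgeR 4.0.16 (R 4.3.3) by a robust quasi-likelihood fit of 4 group means over all 21 libraries, two-sided, with Benjamini-Hochberg adjustment over the 388 genes and a threshold of 0.05.

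Genes were named by rule: among genes that passed, the 15 that rose most and the 10 that fell most, then for each list up to 5 members that passed (smallest p first) and up to 2 with the largest p, up to 10 genes under the minimum whose groups did not overlap, the 5 smallest p against HDE only, the scaling genes and the genes next to the threshold. Lyz2, Cd36, Tlr4, Vwf, Icam1, Icam2, Tnfrsf12a, Cd34 and the genes under the minimum outside this rule were named after their values were seen. Members and lists were chosen with earlier results of these data known, and some lists hold genes that the study discusses. Of the 388 symbols 382 matched the RefSeq gene table, and Emr1 is now named Adgre1. Alternatives were TMM, all housekeeping and positive control scaling, subtraction of the negative probes, 3 other minimums, DESeq2 1.42.0, limma 3.58.1 on unscaled values with the floor, the floor of 87 with edgeR, with sex or with the replicate number as a term, run as a term, run 1 alone, a fit of these 2 groups, and leaving out each library. Columns of the 2 tables were not matched to each other, since the shared names give the group alone. Some genes that these rules select are not reported here.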

Additional observations from a re-analysis of the deposited data

Results flagged for a closer look

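For each gene named above, the highest and lowest library of each group were set against the rest by Dixon's test. Of 186 groups of values tested, 19 had a library standing apart at the 95% level, and chance gives about 1 in 20. Of the 11 such cases among HDE + NNK lungs, 9 were the lung in run 1 lane 11. It was high for Dll4 at 247 normalized counts (103 to 139 in the other 4), Eng at 971 (376 to 529), C3 at 2946 (1962 to 2211), Tnfrsf1b at 541 (186 to 260.1) and Trp53 at 281 (98.3 to 135). It was low for the macrophage gene Emr1 at 226 (430.4 to 502), Tlr8 at 142 (300.1 to 358), Cfb at 247 (461 to 539) and Cybb at 729 (1869.9 to 2251). The other 2 cases were the run 2 lung, high for Cd274 at 521 (389 to 411) and Cd36 at 5450.3 (3698 to 4151). 

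Among saline only lungs, run 2 lane 4 was high for Chil3 at 3900.1 (1149 to 2099.6 in the other 5) and low for Tgfb2 at 102 (129.6 to 135) and Fcgr3 at 122 (171 to 182). The library with the instrument mark, run 2 lane 3, was high for S100a8 at 665 (224 to 364) and Tgfb1 at 399.9 (290.1 to 322). Single high values were also found in Kdr at 1448 (1138 to 1250.1, run 1 lane 6), Abcb1a at 304 (198 to 222, run 2 lane 6) and H2-D1 at 5118 (4045 to 4367, run 2 lane 5). Why these libraries stand apart was not tested.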

How the results depend on the processing

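Against 137 rises and 19 falls in HDE + NNK against saline only lungs, scaling by TMM gave 100 and 69, by all housekeeping genes 118 and 43 and by positive controls 76 and 0. Limma on unscaled values with the floor, a change of test, values and scaling at once, gave 57 and 5. A minimum of 87 in every library left 218 genes and 74 rises, a mean of 20 gave 241 rises among 663 genes and no minimum 236 among 766. Run 1 alone, with fewer lungs, gave 5 falls. Leaving out a library gave 123 to 155 rises and 13 to 42 falls, with 42 without HDE + NNK run 1 lane 11, and an alternative chosen after seeing the data, without that library and the marked saline only library, gave 37 falls. TMM called 78 genes lower against saline + NNK and, for HDE only against saline only, 76 higher and 56 lower. Genes under the minimum whose HDE + NNK lungs all lay above numbered 16 without scaling and 182 in run 1 alone. Epcam (0.04) changed sign with TMM (-0.17), all housekeeping genes (-0.058), limma (-0.093), without HDE + NNK run 1 lane 11 (-0.012, in a range over single libraries of -0.012 to 0.096) and without both doubted libraries (-0.019), as did H2-Ab1 (-0.28) in run 1 alone (0.080). The cause was not tested. Of 86 named genes that passed, 37 passed in every alternative that could test them, and 0 changed sign. With run as a term 7 of the 86 no longer passed. On values with the floor 3 did not pass, and with sex as a further term 5 did not. Low counts limit the T cell, NK cell and cytokine genes.

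The replicate numbers do not pair the mice by any label, and same-numbered mice deviated together with a correlation over 0.1 in 2 of 5 pairs. With the replicate number as a block, on values with the floor, 116 genes rose and 18 fell, against 127 and 18 without it.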
